A study of Mus musculus with 12 samples.

Results

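ApoTf-treated β-thalassemic Pro-E were compared with WT Pro-E to ask what remains apart from normal after treatment. The comparison rests on 6 of the 12 libraries of the series, chosen by the genotype and treatment in their titles, and on 9420 of 24453 genes, those with at least 1 FPKM in at least 3 of the 6 libraries. FPKM are read counts scaled by the exon length of the gene and by the reads of the library. ApoTf-treated β-thalassemic mice carried Hbb th1/th1, a homozygous deletion of an adult β-globin gene, and were injected into the peritoneum with human apoTf for 20 days, at 10 mg each time (in the labels 400 mg/kg daily). β-thalassemic mice of the same genotype, given PBS, and apoTf-treated WT mice are shown beside them, and WT mice were given PBS. Each group has 3 libraries of polyadenylated RNA from Pro-E sorted from bone marrow, each library from several pooled mice, so that the tests measure the spread between pools. Collection was 3 days after the last injection. The labels give strain C57BL6 and an age of 5 months for every library, whereas the methods of the study describe a mixed background and a younger age. The labels also describe a phlebotomy of 0.4 mL, ending 24 hours before collection, for all 12 libraries, and it is unclear if the mice sequenced here were bled. The genotype tags of the labels are the reverse of the genotypes in the titles throughout, and the titles were used.

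Pro-E are the earliest morphologically recognizable erythroid precursors, and they depend on erythropoietin (Epo) and on iron taken up from transferrin for the haem of hemoglobin. In β-thalassemia too little β-globin is made for the α-globin present, and many erythroblasts die before they become red cells, which is called ineffective erythropoiesis. ApoTf is transferrin without bound iron, and it binds iron in the plasma.

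Expression of the β-globin genes was looked at first, as a check of the labels. Hbb-bs, the adult β-globin gene that lies at the deleted position in the C57BL/6J chromosome, was at 95.8, 175 and 201 FPKM in apoTf-treated β-thalassemic, 131, 172 and 147 FPKM in PBS-injected β-thalassemic, 1091, 3229 and 2154 FPKM in apoTf-treated WT, and 714, 1763 and 1784 FPKM in WT Pro-E. All 6 libraries titled th1/th1 therefore lay below all 6 titled WT, as the titles and not the genotype tags have it. Hbb-bs was not at 0 in the th1/th1 libraries, and the source of these reads was not tested. The table also lists Hbb-b1, with nearly the same values in every library, and reads of such near-identical globin genes cannot be assigned with certainty.

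WT replicate 1 stood apart from the other 11 libraries. Its median Spearman correlation with them across genes was 0.861, against 0.982 to 0.990 for the others, and its ribosomal RNA precursor Rn45s was at 31177 FPKM, against 1609 to 6116 FPKM. In WT replicate 1, 2555 genes lay over 2-fold from the mean log2 level of the other WT libraries. This number was 295 in WT replicate 2 and 581 in WT replicate 3, each set against a mean that includes WT replicate 1. In libraries of the other groups, each against its own group, it was 27 to 78. WT replicate 1 also had the fewest reads, 33260000, with 40140000 to 51380000 in the others. Results are therefore given with and without it. The median log2 fold change of all genes tested, apoTf-treated β-thalassemic over WT, was 0.10 with it and -0.05 without it.

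Few genes passed the threshold between the groups. With all libraries, 4 of 9420 genes (0.0425%) passed an adjusted p of 0.05 (limma on log2 of FPKM plus 0.5, two-sided), of which 3 were lower and 1 was higher in apoTf-treated β-thalassemic than in WT Pro-E. The lower genes were Stard10, which encodes a lipid transfer protein of the START family, Hbb-bs and Hbb-b1. Hbb-bs lies at the deleted position and was used above as a check of the labels, and Hbb-b1 had nearly the same values. The higher gene was Neu3, which encodes a plasma membrane sialidase acting on gangliosides. Without WT replicate 1, 6 genes (0.0637%) passed, as Pold3, an accessory subunit of DNA polymerase δ, and Rab6a, a small GTPase of Golgi traffic, joined the 4 as higher genes. All of these genes that have a position of their own on the chromosome lie within 10 Mb of each other on chromosome 7. At an unadjusted p below 0.05 there were 383 genes (4.07%), and 222 (2.36%) without WT replicate 1. The libraries of both groups did not overlap for 796 genes (8.45%). In such bulk samples fewer cells of a type and less RNA per cell cannot be told apart.

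The 250 bases before the start sites of Stard10, Hbb-bs and Neu3 are shown because these are the 3 distinct loci that passed with all libraries. The sequences are from RefSeq on GRCm38.p6, and the build of the deposited values is mm10, the same assembly. Capitals mark matches on either strand to 3 motifs that do not overlap here. The first is CACCC, the core bound by Krüppel-like factors such as Klf1. Another, read by GATA factors such as Gata1, is AGATAA. The last is CCAAT, named after its letters. They are the windows chr7:101316836-101317085 (plus strand), chr7:103827929-103828178 (minus strand) and chr7:99828418-99828667 (minus strand), each 5′ to 3′, and the Neu3 window is taken from the start site in the promoter table, inside the end of the gene given below.
Stard10: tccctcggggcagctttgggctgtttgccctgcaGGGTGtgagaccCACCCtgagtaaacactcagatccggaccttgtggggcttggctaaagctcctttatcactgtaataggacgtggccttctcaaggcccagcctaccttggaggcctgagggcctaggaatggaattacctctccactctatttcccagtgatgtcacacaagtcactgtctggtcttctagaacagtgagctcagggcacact
Hbb-bs: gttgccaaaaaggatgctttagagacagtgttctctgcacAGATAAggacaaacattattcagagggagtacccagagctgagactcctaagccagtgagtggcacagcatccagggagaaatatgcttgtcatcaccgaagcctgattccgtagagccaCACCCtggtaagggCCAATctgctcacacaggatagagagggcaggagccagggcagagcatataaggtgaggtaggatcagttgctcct
Neu3: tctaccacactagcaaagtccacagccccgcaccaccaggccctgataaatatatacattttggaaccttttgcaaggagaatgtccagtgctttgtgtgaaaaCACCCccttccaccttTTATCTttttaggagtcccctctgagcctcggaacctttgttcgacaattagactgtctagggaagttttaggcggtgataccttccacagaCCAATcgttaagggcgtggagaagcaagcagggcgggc
The Stard10 window holds 2 matches to CACCC and neither of the others, whereas the Hbb-bs and Neu3 windows each hold 1 match to each of the 3. CACCC occurs in 52% of all 32851 promoter windows of this length, AGATAA in 9.99% and CCAAT in 33.8%. Among the 8954 windows of genes tested the shares are 55.5%, 5.75% and 36.3% in the same order. A match is a string of letters, and binding was not measured.

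Stard10 (GRCm38.p6 chromosome 7, 101317086 to 101346626) lies 2.50 Mb from Hbb-bs on the side of lower coordinates. It was at 22.2, 16.2 and 19.9 FPKM in apoTf-treated β-thalassemic, 15.2, 15.5 and 25.8 FPKM in PBS-injected β-thalassemic, 109, 129 and 88.8 FPKM in apoTf-treated WT, and 254, 140 and 172 FPKM in WT Pro-E. The highest th1/th1 library was well below the lowest WT library, whichever treatment was given. The means were 19.4 ± 3.04 FPKM in apoTf-treated β-thalassemic and 189 ± 58.8 FPKM in WT Pro-E (SD, n = 3 libraries each), a 9.72-fold ratio. Stard10 fell by 3.22 on the log2 scale (SE 0.26, 95% interval -3.78 to -2.65, limma adjusted p = 0.000341). It passed under each of the 23 alternatives, whose adjusted p were 8.84e-05 to 0.0383.

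Hbb-bs (chromosome 7, 103826523 to 103827928) averaged 157 ± 54.7 FPKM in apoTf-treated β-thalassemic and 1420 ± 612 FPKM in WT Pro-E, with no overlap. It fell by 3.12 on the log2 scale (SE 0.43, 95% interval -4.07 to -2.17, limma adjusted p = 0.0378), and by 3.56 without WT replicate 1. It passed under 13 of 23 alternatives, with adjusted p of 0.000633 to 0.304. The call was lost when any β-thalassemic library, any apoTf-treated β-thalassemic library, WT replicate 2 or WT replicate 3 was left out, with log2 fold changes of -3.33 to -2.80 in those fits.

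Neu3 (chromosome 7, 99811434 to 99828457) lies 4.01 Mb from Hbb-bs on the same side as Stard10. It was at 12.3, 12.8 and 13.5 FPKM in apoTf-treated β-thalassemic, 11.8, 12.1 and 13.0 FPKM in PBS-injected β-thalassemic, 7.20, 5.54 and 7.77 FPKM in apoTf-treated WT, and 5.61, 5.35 and 6.90 FPKM in WT Pro-E. Every th1/th1 library exceeded every WT library. The ratio of means was 2.16, and Neu3 rose by 1.06 on the log2 scale (SE 0.15, 95% interval 0.73 to 1.39, limma adjusted p = 0.0378). Neu3 was positive under all 23 alternatives but passed under 8 of them, with adjusted p of 0.0228 to 0.736. Among single libraries, leaving out any library except WT replicate 1, apoTf-treated WT replicate 2 or apoTf-treated WT replicate 3 ended the call, at limma adjusted p of 0.0683 to 0.366, and so did median-ratio scaling (0.0886) and quantile normalization (0.115).

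**Figure D1:**
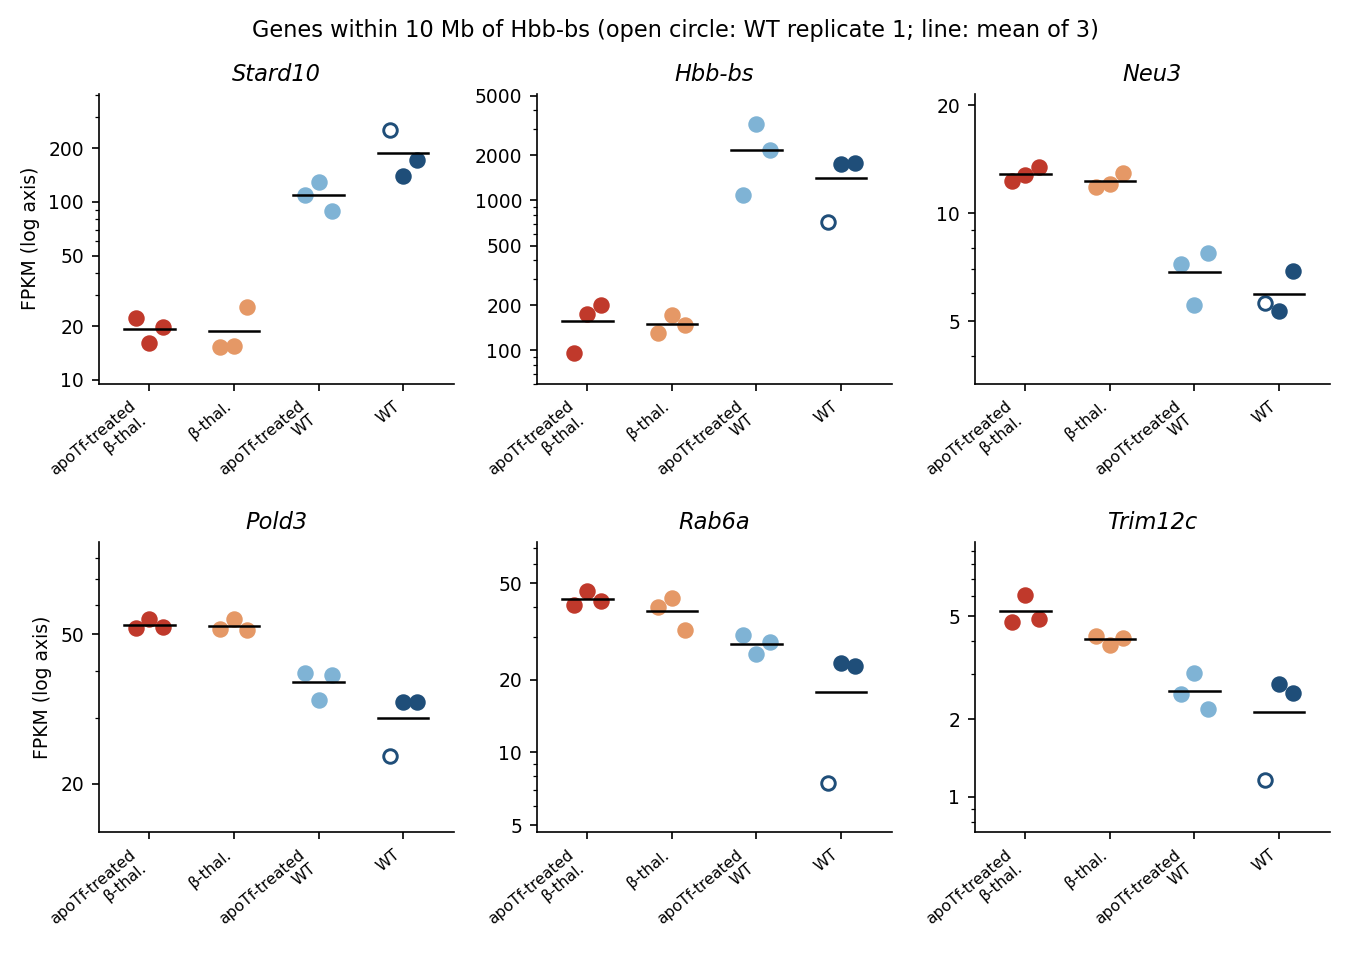
FPKM per library on a log axis for 6 genes within 10 Mb of Hbb-bs, in apoTf-treated β-thalassemic, β-thalassemic, apoTf-treated WT and WT Pro-E, with 1 point per library, a line at the mean of 3 and WT replicate 1 as an open circle. For each gene no WT library, with or without apoTf, reaches the range of the apoTf-treated β-thalassemic libraries, and the untreated β-thalassemic libraries lie close to the treated ones, below them for Trim12c.

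Pold3 (chromosome 7, 100082110 to 100121502) was at 52.0, 54.8 and 52.4 FPKM in apoTf-treated β-thalassemic and at 23.8, 33.0 and 33.1 FPKM in WT Pro-E. The groups did not overlap, and the lowest value was that of WT replicate 1. The log2 fold change was 0.83 with all libraries (limma adjusted p = 0.168) and 0.68 without WT replicate 1 (95% interval 0.46 to 0.89, limma adjusted p = 0.0266, with 0.0266 to 1.00 over the alternatives). Rab6a (chromosome 7, 100607575 to 100641268) was at 40.8, 46.3 and 42.3 FPKM in apoTf-treated β-thalassemic and at 7.49, 23.4 and 22.7 FPKM in WT Pro-E. WT replicate 1 was again the lowest by far, and every WT library lay below every apoTf-treated β-thalassemic library. The log2 fold change was 1.41 with it (limma adjusted p = 0.509) and 0.89 without it (95% interval 0.60 to 1.18, limma adjusted p = 0.0266, with 0.0266 to 1.00 over the alternatives).

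Other genes of this stretch did not pass, and those named here were chosen after their values were seen. Trim12c, a TRIM family gene 0.52 Mb from Hbb-bs on the side of higher coordinates, was at 4.77, 6.08 and 4.88 FPKM in apoTf-treated β-thalassemic and 1.17, 2.74 and 2.52 FPKM in WT Pro-E (log2 fold change 1.17, limma adjusted p = 0.257). Coa4, an assembly factor of cytochrome c oxidase, was at 6.88, 5.45 and 4.88 FPKM, against 1.96, 2.44 and 3.42 FPKM in WT (log2 fold change 1.02, limma adjusted p = 0.257). Ucp2, a carrier of the mitochondrial inner membrane, was at 129, 155 and 148 FPKM, against 292, 183 and 224 FPKM in WT (log2 fold change -0.67, limma adjusted p = 0.509). These genes did not overlap between apoTf-treated β-thalassemic and WT libraries. Over all 12 libraries Trim12c separated the genotypes, but Coa4 and Ucp2 did not. Coa4 was at 4.03 FPKM in PBS-injected β-thalassemic replicate 1 and 4.17 FPKM in apoTf-treated WT replicate 1. Ucp2 was at 181 FPKM in PBS-injected β-thalassemic replicate 3 and 164 FPKM in apoTf-treated WT replicate 1. Folr1, the folate receptor α gene (chromosome 7, 101858331 to 101870788), lay below the filter, at 0, 0 and 0.017 FPKM in apoTf-treated β-thalassemic, 0.017, 0.017 and 0 FPKM in PBS-injected β-thalassemic, 0.757, 0.916 and 0.654 FPKM in apoTf-treated WT, and 0.89, 0.586 and 1.06 FPKM in WT Pro-E. It separated the genotypes in all 12 libraries, and it passed when no filter was applied.

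Of the 89 tested genes within 10 Mb of Hbb-bs, 3 passed, 13 (14.6%) had an unadjusted p below 0.05, and 21 (23.6%) did not overlap, compared with 0, 339 (3.89%) and 8.13% of the 8707 tested on other chromosomes. The share was highest between 2 and 5 Mb, where 8 of 24 genes (33.3%) had an unadjusted p below 0.05, and 11 (45.8%) without WT replicate 1. Within 2 Mb it was 4 of 29 genes (13.8%), and 7 (24.1%) without WT replicate 1. Between 5 and 10 Mb it was 1 of 36 genes with all libraries, and between 10 and 20 Mb 2 of 56. Without WT replicate 1, 5 genes passed within 10 Mb and again 0 on other chromosomes, where 188 had an unadjusted p below 0.05 (limma). The same libraries set against apoTf-treated WT, which does not include WT replicate 1, gave 3 genes in all (0.0318% of 9420), namely Stard10, Hbb-bs and Hbb-b1. In that comparison 13 of the 89 genes (14.6%) had an unadjusted p below 0.05, compared with 1.18% on other chromosomes and 1.37% of all genes tested. Set against β-thalassemic Pro-E given PBS, 0 of the 89 genes passed and 3 (3.37%) had an unadjusted p below 0.05, compared with 1.26% on other chromosomes and 1.27% of all genes tested (limma). Leaving out WT replicate 1, which enters these 2 comparisons only through the shared estimate of the spread, raised the genes tested with an unadjusted p below 0.05 to 342 against apoTf-treated WT and 347 against PBS-injected β-thalassemic Pro-E, with all libraries 129 and 120. DNA of the region next to the deleted gene is inherited with it, so the deletion and the sequence around it cannot be told apart in these animals.

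**Figure D2:**
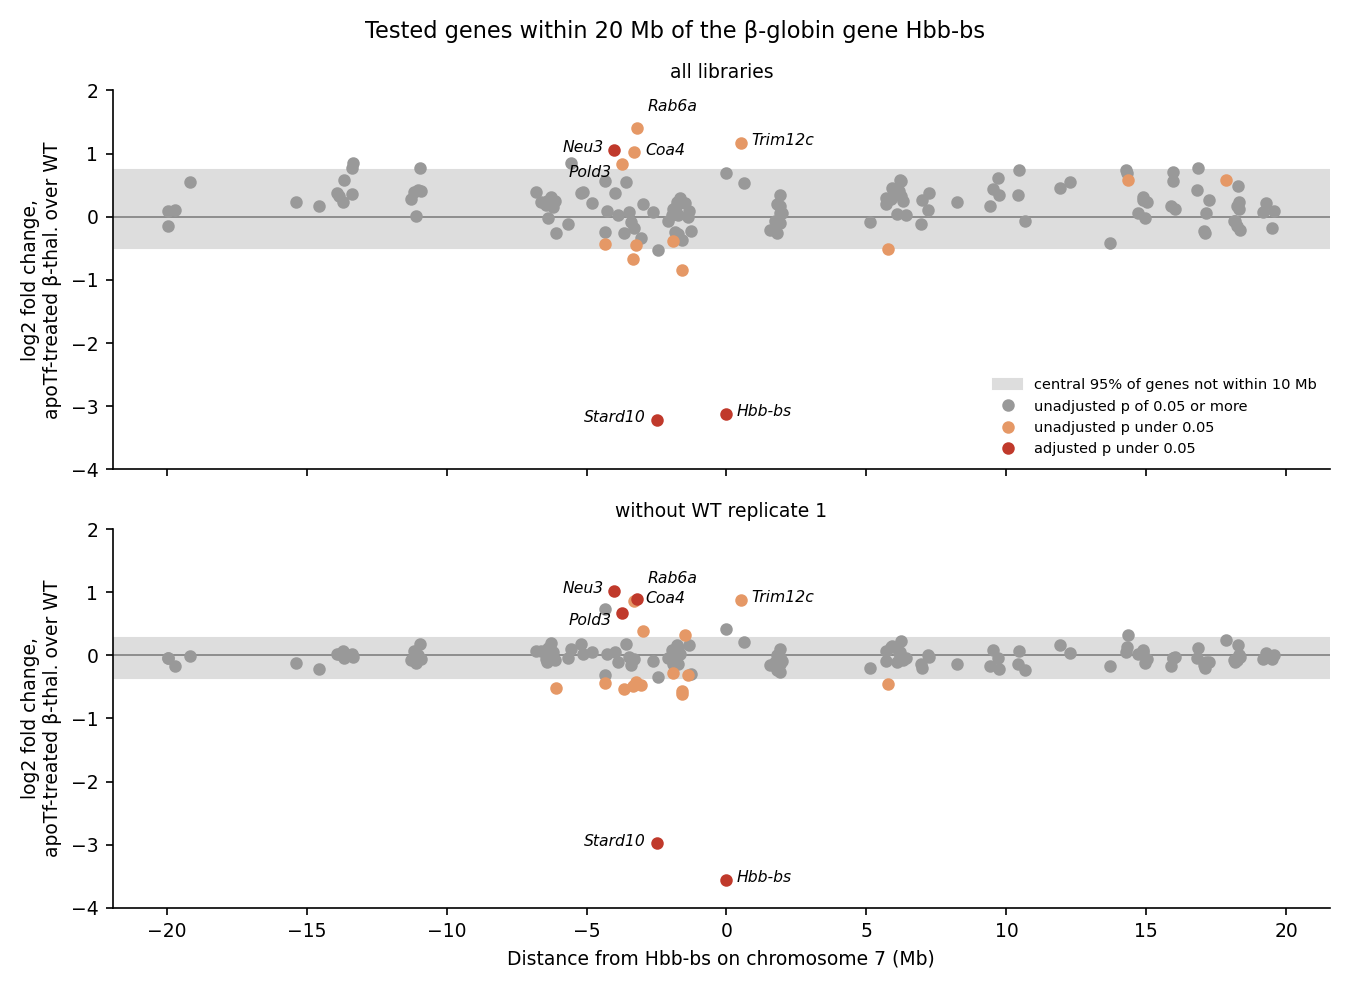
Log2 fold change, apoTf-treated β-thalassemic over WT, of each tested gene within 20 Mb of Hbb-bs against its distance from Hbb-bs in Mb, with all libraries (top) and without WT replicate 1 (bottom), the grey band being the central 95% of the 9291 genes with a position that lie beyond 10 Mb or on other chromosomes. The genes over 1 in size with all libraries, Stard10, Hbb-bs, Neu3, Rab6a, Coa4 and Trim12c, lie between 4.01 Mb below and 0.52 Mb above Hbb-bs.

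Of the other globin genes, none passed. Hbb-bt, the second adult β-globin gene on this chromosome, was at 537, 1037 and 1065 FPKM in apoTf-treated β-thalassemic, 815, 1131 and 577 FPKM in PBS-injected β-thalassemic, and 350, 592 and 668 FPKM in WT Pro-E. These libraries overlapped, with a log2 fold change over WT of 0.70 (95% interval -0.14 to 1.54, limma adjusted p = 0.509). Hba-a1, an α-globin gene on chromosome 11, was at 278, 470 and 505 FPKM in apoTf-treated β-thalassemic and 654, 358 and 460 FPKM in WT Pro-E (log2 fold change -0.23, 95% interval -1.03 to 0.56), which also overlapped. The embryonic gene Hbb-bh1 was below the filter, at 0.499, 0.457 and 0.212 FPKM in apoTf-treated β-thalassemic, 0.393, 0.406 and 0.465 FPKM in PBS-injected β-thalassemic, and 0.049, 0.035 and 0.075 FPKM in WT Pro-E, with no overlap between genotypes (two-sided exact permutation p = 0.1, the smallest that 3 libraries against 3 allow).

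Genes that stood apart before treatment were followed into the treated group. Between untreated β-thalassemic and WT Pro-E 20 genes passed (0.212% of 9420), 11 higher and 9 lower. Of these, 4 also passed between apoTf-treated β-thalassemic and WT Pro-E. Without WT replicate 1, 22 genes passed, 11 higher and 11 lower, and Plxna1, Mxd4 and Arhgdig no longer did. With a block for replicate number, Plxna1, Mxd4, Arhgdig, Gpc4, Lrig1, Fry, Vps13c, Fabp5, Osm and Mir30c-2 did not pass. The counts that follow are of the 20 genes that passed with all libraries and no block. The apoTf-treated libraries overlapped only with the untreated β-thalassemic libraries for 7 genes, only with WT for 4, and with neither group for 9. Genes higher before treatment overlapped only with untreated β-thalassemic in 2 of 11 cases, Neu3 and the microRNA gene Mir30c-2, and genes lower before treatment in 5 of 9, Stard10, Hbb-bs, Hbb-b1, Gpc4 and Plxna1. Hbb-bs and Hbb-b1 had nearly the same values in every library, so each of these counts that holds both counts the same signal more than once. The comparisons share the WT libraries, and the 20 genes were chosen on these and on the untreated β-thalassemic libraries. Choosing genes for a wide gap between those groups in part favours apoTf-treated libraries that lie in between. Of all 9420 genes tested, 796 (8.45%) did not overlap between apoTf-treated β-thalassemic and WT libraries. The share overlapping with untreated β-thalassemic libraries is not given for all genes, so the counts above have no full background.

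Plek2, which encodes the Epo-responsive actin regulator pleckstrin-2, was at 1.98, 2.36 and 2.38 FPKM in apoTf-treated β-thalassemic, 9.36, 14.8 and 4.58 FPKM in PBS-injected β-thalassemic, 0.479, 1.98 and 1.42 FPKM in apoTf-treated WT, and 0.75, 1.00 and 1.38 FPKM in WT Pro-E. All 3 apoTf-treated β-thalassemic libraries lay in between, above WT given PBS and below untreated β-thalassemic. They overlapped with apoTf-treated WT, whose replicate 2, at 1.979 FPKM, was just above apoTf-treated β-thalassemic replicate 1, at 1.975 FPKM. Against apoTf-treated WT the log2 fold change was 0.71 (95% interval -0.14 to 1.56). Plek2 did not pass against WT (log2 fold change 0.84, 95% interval -0.00 to 1.69, limma adjusted p = 0.509), where untreated β-thalassemic over WT was 2.59 (limma adjusted p = 0.0231). Tnfrsf21, death receptor 6, was at 4.32, 3.24 and 3.40 FPKM in apoTf-treated β-thalassemic, 10.6, 13.2 and 8.29 FPKM in PBS-injected β-thalassemic, and 2.58, 2.34 and 2.79 FPKM in WT Pro-E. It too lay in between without overlap, at 0.43 over WT (95% interval 0.04 to 0.82, limma adjusted p = 0.509). It was the only gene to pass with all libraries when apoTf-treated were set against PBS-injected β-thalassemic mice (0.0106% of 9420), where it fell by 1.41 on the log2 scale (limma adjusted p = 0.0393).

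Fam132b, which encodes erythroferrone, the erythroblast hormone that lowers hepcidin, was at 2.30, 1.72 and 2.17 FPKM in apoTf-treated β-thalassemic, 8.82, 13.3 and 4.89 FPKM in PBS-injected β-thalassemic, and 1.33, 1.38 and 1.75 FPKM in WT Pro-E. The apoTf-treated libraries overlapped with WT, at a log2 fold change of 0.37 (95% interval -0.24 to 0.97). Osm, the cytokine oncostatin M, also overlapped with WT, at 2.06, 1.28 and 1.39 FPKM against 1.04, 0.922 and 1.61 FPKM in WT (log2 fold change 0.30, 95% interval -0.25 to 0.85). Cpd, carboxypeptidase D, was at 13.3, 10.0 and 9.31 FPKM in apoTf-treated β-thalassemic, 27.1, 35.3 and 22.8 FPKM in PBS-injected β-thalassemic, and 2.91, 5.79 and 7.67 FPKM in WT Pro-E, in between and without overlap (log2 fold change over WT 1.01, 95% interval 0.38 to 1.63, limma adjusted p = 0.509). Without WT replicate 1 its log2 fold change over WT was 0.65 (95% interval 0.22 to 1.08).

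Podxl and Cda, both below the filter, showed the same order of the groups. Podxl, the sialomucin podocalyxin, was at 1.56, 0.799 and 0.62 FPKM in apoTf-treated β-thalassemic, 10.8, 23.6 and 9.86 FPKM in PBS-injected β-thalassemic, and 0.323, 0.318 and 0.403 FPKM in WT Pro-E. Cda, cytidine deaminase, was at 0.347, 0.344 and 0.453 FPKM in apoTf-treated β-thalassemic, 1.75, 2.95 and 3.26 FPKM in PBS-injected β-thalassemic, and 0.111, 0.053 and 0.168 FPKM in WT Pro-E. For each the apoTf-treated libraries lay above all WT and below all untreated β-thalassemic libraries (two-sided exact permutation p = 0.1 for each pair of groups, the smallest possible).

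**Figure D3:**
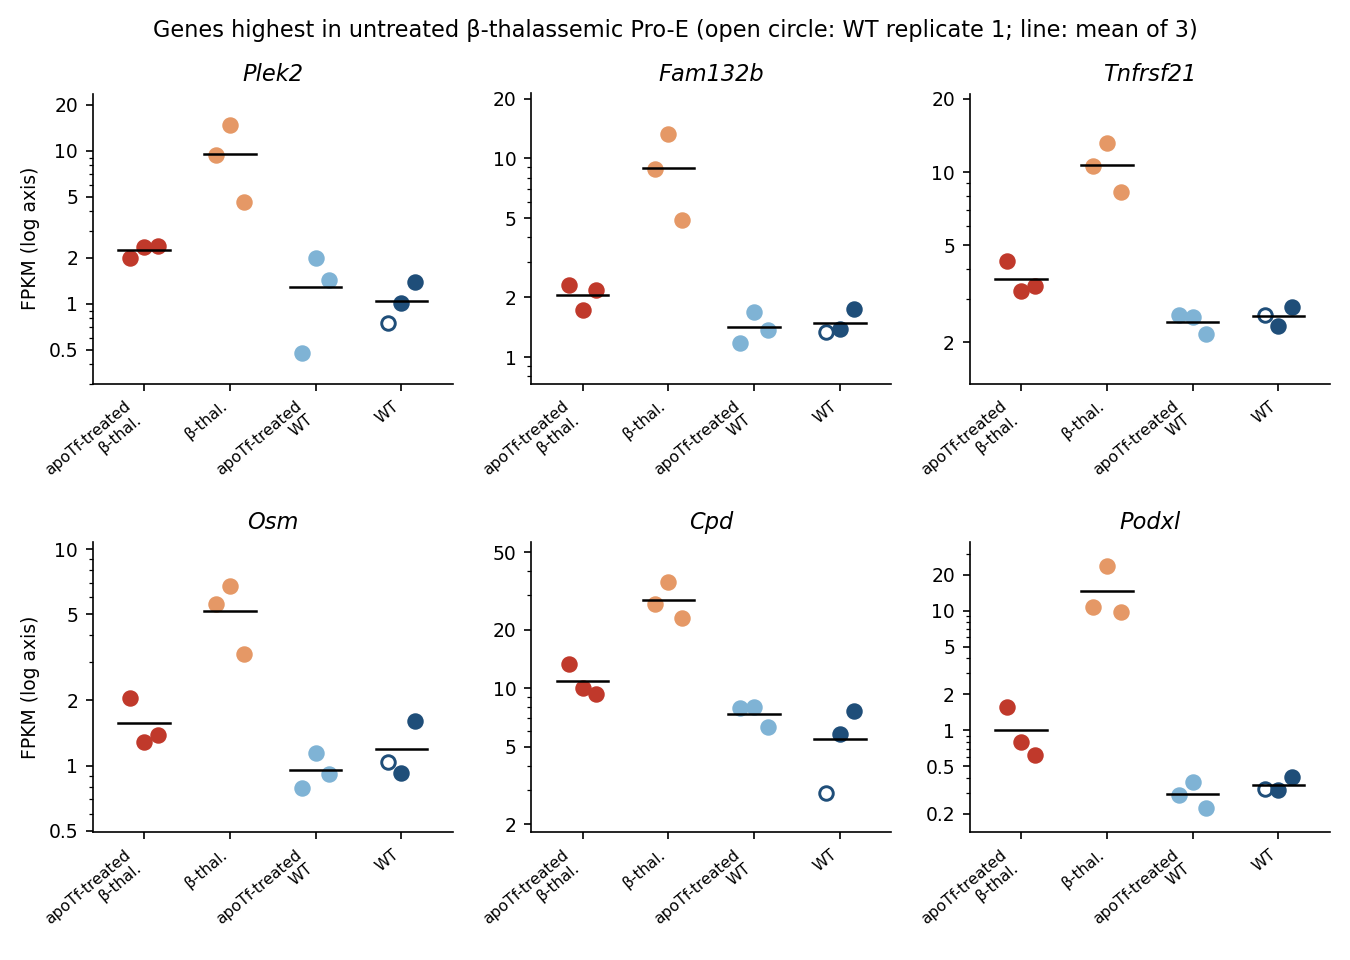
FPKM per library on a log axis for 6 genes with their highest mean in β-thalassemic mice given PBS, in apoTf-treated β-thalassemic, β-thalassemic, apoTf-treated WT and WT Pro-E, with 1 point per library, a line at the mean of 3 and WT replicate 1 as an open circle. The apoTf-treated β-thalassemic libraries lie below the untreated ones for each gene, and above WT given PBS for Plek2, Tnfrsf21, Cpd and Podxl. For Fam132b and Osm they overlap with WT given PBS, and the highest of them exceeds every WT library.

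Among genes lower before treatment, Khdrbs3, an RNA-binding protein gene, was at 2.84, 3.12 and 2.48 FPKM in apoTf-treated β-thalassemic, 1.62, 1.53 and 1.36 FPKM in PBS-injected β-thalassemic, and 3.53, 4.07 and 4.83 FPKM in WT Pro-E. It lay between the groups without overlap (log2 fold change over WT -0.48, 95% interval -0.82 to -0.15, limma adjusted p = 0.509). Adam33, a metalloprotease gene, and Lrig1, a membrane protein that restrains receptor tyrosine kinases, also lay in between, at log2 fold changes over WT of -0.63 and -0.29, with -1.11 and -0.83 for untreated β-thalassemic over WT. Mxd4, a MAX partner that opposes MYC, overlapped with WT at -0.49, with -1.14 for untreated β-thalassemic. ApoTf-treated WT libraries were below all WT libraries for Adam33, at 2.39, 2.00 and 2.77 FPKM, and for Mxd4, at 2.06, 1.93 and 1.88 FPKM. Against apoTf-treated WT the log2 fold changes of apoTf-treated β-thalassemic turned direction, at 0.08 for Adam33 and 0.13 for Mxd4, whereas Khdrbs3 was at -0.50 and Lrig1 at -0.13. Gpc4, a glypican, was at 4.36, 6.56 and 5.04 FPKM in apoTf-treated β-thalassemic, 3.72, 4.60 and 5.62 FPKM in PBS-injected β-thalassemic, 14.4, 11.3 and 9.66 FPKM in apoTf-treated WT, and 11.8, 10.5 and 15.02 FPKM in WT Pro-E. It separated the genotypes but did not pass in the treated comparison (log2 fold change -1.16, limma adjusted p = 0.168). Plxna1, a semaphorin receptor, was at 1.67, 1.25 and 1.04 FPKM in apoTf-treated β-thalassemic and 4.05, 3.13 and 2.85 FPKM in WT Pro-E (log2 fold change -1.08, limma adjusted p = 0.124). Its apoTf-treated WT libraries, at 1.41, 1.12 and 1.02 FPKM, were also below WT, so it did not separate the genotypes. These 6 genes were chosen after their values were seen.

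**Figure D4:**
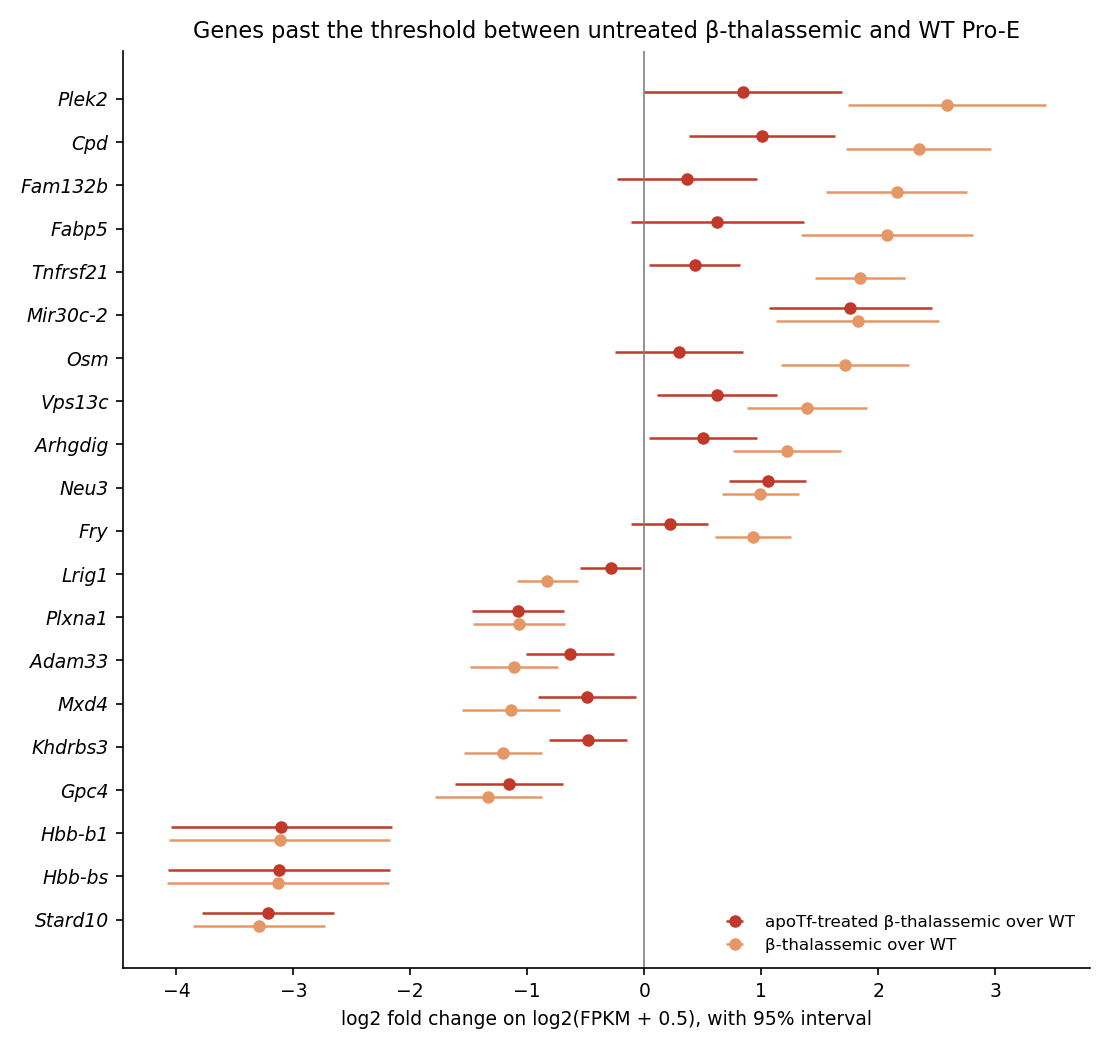
Log2 fold change over WT with its 95% interval (limma on log2 of FPKM plus 0.5) of the 20 genes past the threshold without treatment, for apoTf-treated β-thalassemic (upper point of each gene) and for untreated β-thalassemic cells (lower point). Stard10, Hbb-bs, Hbb-b1, Neu3, Mir30c-2, Plxna1 and Gpc4 differ by at most 0.18 between both, and the other genes lie closer to 0 in apoTf-treated β-thalassemic Pro-E.

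Of 18 tested genes of cholesterol synthesis, 0 passed, 2 had an unadjusted p below 0.05 (limma) and 11 had a log2 fold change above 0, with a median of 0.12. Without WT replicate 1, 0 passed, 1 had an unadjusted p below 0.05 and 6 were above 0, with a median of -0.03.

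The remaining lists of erythroid pathways held 0 genes past the limma threshold, and the genes at an unadjusted p below 0.05 are counted below with all libraries. Their medians over WT are given with all libraries and then without WT replicate 1, beside 0.10 and -0.05 for all genes tested. Haem synthesis (15 genes tested) had medians of 0.13 and 0.00, and 0 genes at an unadjusted p below 0.05. Iron uptake, storage and export (15 genes) had 0.00 and -0.12. Here Tfrc, the transferrin receptor, was at 370, 446 and 455 FPKM in apoTf-treated β-thalassemic and 77.3, 321 and 364 FPKM in WT Pro-E. The low value was that of WT replicate 1, and the log2 fold change of 1.01 (limma adjusted p = 0.509) was 0.30 without it (95% interval -0.11 to 0.71). Ncoa4, the ferritinophagy receptor, and Pcbp1, an iron chaperone, had an unadjusted p below 0.05, as had Tfrc, and none of the 15 genes had without WT replicate 1.

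For the Epo receptor and its response (11 genes tested), medians were -0.14 and 0.00, and Epor itself was at 43.8, 44.4 and 46.3 FPKM in apoTf-treated β-thalassemic and 79.2, 40.6 and 56.98 FPKM in WT Pro-E, which overlapped. For erythroid transcription factors (18 genes) medians were -0.18 and -0.17, and for the red cell membrane and skeleton (24 genes) 0.11 and 0.01. In these 3 lists 0, 1 and 0 genes had an unadjusted p below 0.05. Among stress responses, targets of the haem-regulated kinase and ATF4 (19 genes) had medians of 0.04 and -0.05, heat shock proteins and chaperones (17 genes) 0.27 and 0.09, and antioxidant and NRF2 targets (22 genes) 0.24 and -0.03, with 1, 1 and 2 genes at an unadjusted p below 0.05. Genes of mitosis (23 genes) had 0.42 and 0.13, with 21 and 22 genes above 0, and proteasome subunits (34 genes) 0.28 and 0.04, with 2 and 0 genes at an unadjusted p below 0.05. The mitosis list had a median of 0.01 against apoTf-treated WT, as had all genes tested. The share of all genes tested that lay above 0 is not given. Lists of apoptosis and death receptors (19 genes), D cyclins and CDK inhibitors (15 genes), DNA replication (24 genes), glycolysis (12 genes), hypoxia sensing (8 genes), TGF-β and activin receptors (10 genes), cytosolic ribosomal proteins (70 genes) and actin regulators around pleckstrin-2 (17 genes) had medians of -0.16 to 0.25, and of -0.13 to 0.04 without WT replicate 1. In these lists 1 gene of apoptosis and 1 of TGF-β and activin receptors had an unadjusted p below 0.05, and 0 in the others. Kit, glucocorticoid receptor and progenitor genes (9 genes) had -0.09 and -0.31, with 1 gene at an unadjusted p below 0.05. Without WT replicate 1, 2 genes of ribosomal proteins and 1 each of apoptosis, DNA replication, hypoxia sensing and the Kit list had an unadjusted p below 0.05, and 0 of each other list in this paragraph.

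The interferon response list (13 genes tested) kept a median of 0.34 with and 0.29 without WT replicate 1, with 12 and 11 genes above 0. Against apoTf-treated WT the median of this list was lower, at 0.17, beside 0.01 for all genes tested. No gene of it passed, and 4 genes had an unadjusted p below 0.05, against 1 without WT replicate 1. Ifitm3, an antiviral membrane protein gene on chromosome 7 but 37.2 Mb from Hbb-bs, was at 20.3, 19.0 and 20.8 FPKM in apoTf-treated β-thalassemic, 19.0, 17.9 and 22.0 FPKM in PBS-injected β-thalassemic, and 11.3, 15.7 and 12.7 FPKM in WT Pro-E. It did not overlap with WT, at a log2 fold change of 0.59 (95% interval 0.28 to 0.91, limma adjusted p = 0.509). Irf9, a transcription factor that carries the interferon signal, was at a log2 fold change of 0.34 (limma adjusted p = 0.509). Immediate early genes (9 genes) had medians of -0.51 and -0.25, with 0 past the threshold and 2 at an unadjusted p below 0.05 (limma), or 1 without WT replicate 1, and Jun was at 6.93, 2.34 and 4.20 FPKM in apoTf-treated β-thalassemic and 12.8, 6.21 and 8.82 FPKM in WT Pro-E, which overlapped.

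**Figure D5:**
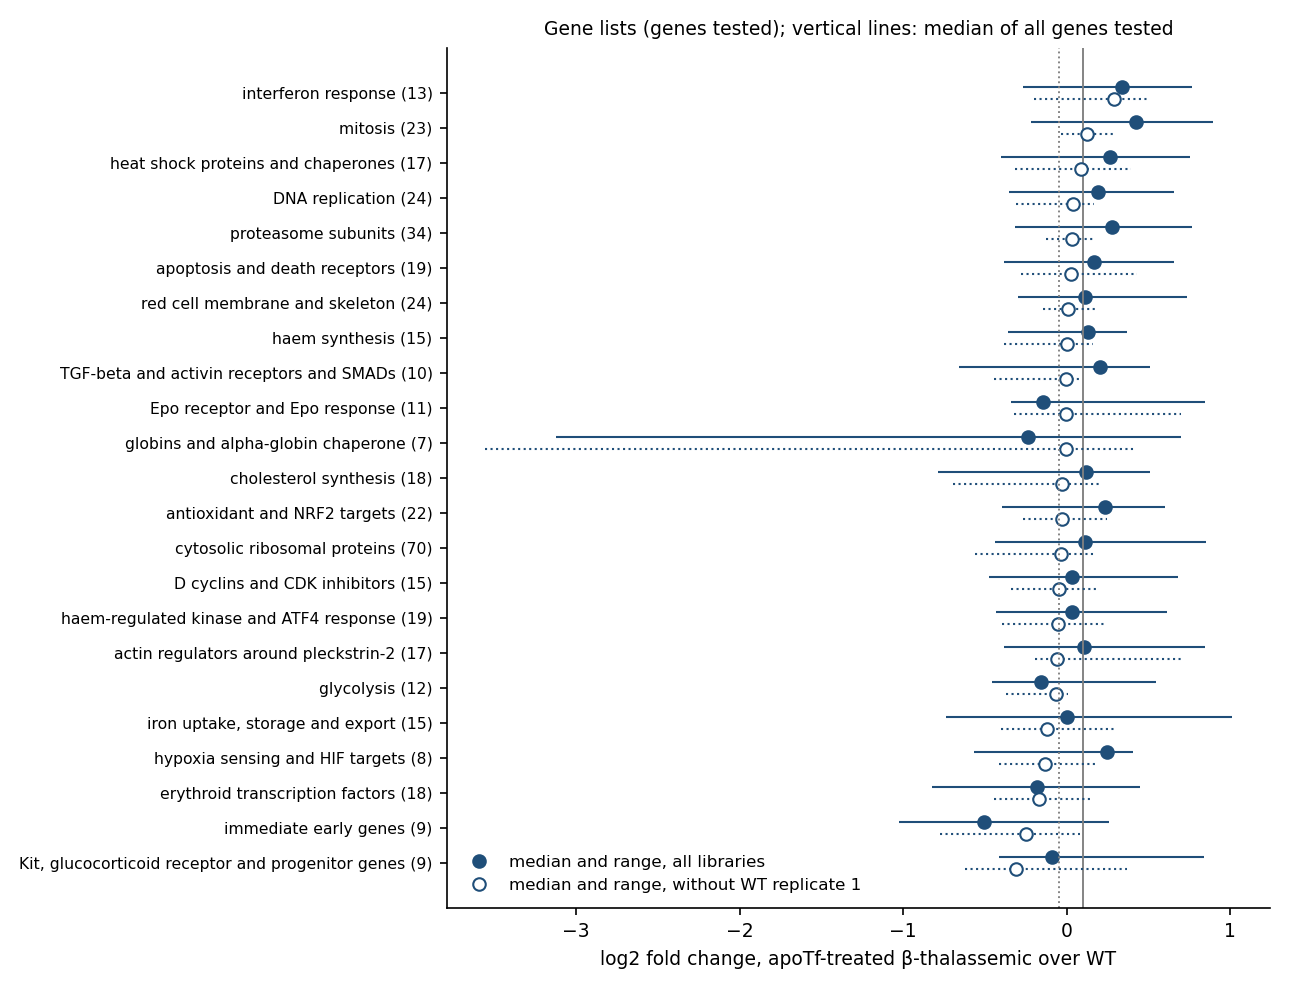
Median (circle) and range (line) of the log2 fold change, apoTf-treated β-thalassemic over WT, in each gene list, with the number of genes tested in parentheses, for all libraries (filled) and without WT replicate 1 (open), vertical lines being the medians of all genes tested. Most medians move toward 0 without WT replicate 1, and the interferon list stays at 0.29.

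The sorted cells carried the markers of Pro-E. The 12 Pro-E markers summed to 1272 to 1451 FPKM in apoTf-treated β-thalassemic and 1010 to 1462 FPKM in WT Pro-E, and each was at or above 1 FPKM in at least 1 of these libraries. Markers of other cells were low. The 16 neutrophil markers summed to 2.02 to 12.4 FPKM in apoTf-treated β-thalassemic and 3.12 to 42.6 FPKM in WT Pro-E, led by S100a8 and S100a9. S100a8 was at 3.78, 2.03 and 0.221 FPKM in apoTf-treated β-thalassemic and 0.153, 6.44 and 13.6 FPKM in WT Pro-E, which overlapped, with WT replicates 2 and 3 the highest. Of the neutrophil markers 3 were tested, and 0 had an unadjusted p below 0.05 (limma) with all libraries but 3 had without WT replicate 1, each lower in apoTf-treated β-thalassemic Pro-E. Of monocyte and macrophage, B cell and T and NK cell markers 15 of 17, 13 of 14 and 14 of 15 were below 1 FPKM in all 6 libraries. Megakaryocyte markers summed to 15.6 to 18.9 FPKM in apoTf-treated β-thalassemic and 20.4 to 25.7 FPKM in WT Pro-E, without overlap, led by Gp9, with Gp1bb and Selp at or near 0. In apoTf-treated WT Pro-E they summed to 12.9 to 20.5 FPKM, which spans the range of apoTf-treated β-thalassemic Pro-E. Mast cell, basophil and eosinophil markers summed to 1.58 to 5.18 FPKM in apoTf-treated β-thalassemic and 3.19 to 11.4 FPKM in WT Pro-E, and endothelial and stromal markers to 3.52 to 4.78 and 4.28 to 6.08 FPKM in the same order. Markers of late erythroblasts and reticulocytes summed to 946 to 1551 FPKM in apoTf-treated β-thalassemic and 1216 to 1358 FPKM in WT Pro-E, which overlapped. The part of these cells in the differences above was not tested.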

How the data were processed

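Reads were aligned to mm10 with STAR, keeping reads with a single alignment, and exon reads on both strands were counted per gene with HOMER, per the methods of the study. The authors deposited FPKM values per gene and library, rounded to decimals, and these were analysed as deposited. The labels also list featureCounts and edgeR, and versions are not given in the sources used here. Columns of the authors' own comparisons, fold changes and adjusted p-values of apoTf-treated over untreated Pro-E, were not used, nor was a sheet of group means.

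Groups were compared with limma 3.58.1 in R 4.3.3 (lmFit, then eBayes with a mean-dependent prior variance) on log2 of FPKM plus 0.5. All 12 libraries were fitted with 4 group means, which assumes equal spread, and p-values were adjusted by Benjamini-Hochberg over 9420 genes (threshold 0.05). The 9420 genes were those at 1 FPKM or more in 3 or more of the 6 libraries compared. Log2 fold changes on this scale understate the change of low genes. For single genes, exact permutation tests of 3 against 3 libraries cannot give a p below 0.1. Tables were made with Python 3.11.15, pandas 2.3.3 and numpy 2.4.6.

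Positions are RefSeq on GRCm38.p6 for 9380 of the genes tested, matched by symbol or synonym. Genes placed under 3 Mb, other than on chromosome Y, lie on scaffolds and were given none. The reads behind each library, 33260000 to 51380000, were read from the FPKM step of 1 read in 1300 genes of at most 150 bases, where 95.1% to 97.7% of the values were within 0.05 read of a whole number. A read per kilobase of exon was worth 0.0195 to 0.0301 FPKM, so that low values of short genes rest on few reads.

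Members and lists were chosen with earlier results of these data known. Genes named are those that passed and did not overlap, with a higher mean of at least 2 FPKM, those that passed without WT replicate 1, up to 4 of each list with the smallest p, Plek2, Podxl, Fam132b, Tnfrsf21, Cda, Osm and the globin genes. Any other was chosen after its values were seen, and a few genes that the rule names are not reported here. The alternatives were pseudocounts of 0.1 and 1, a filter of 5 FPKM or none, quantile normalization or median-ratio scaling, no variance trend, only the libraries compared, a block for replicate number, apoTf-treated WT as the reference and each library left out in turn.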

Additional observations from a re-analysis of the deposited data

How the results depend on the processing

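The count of 4 genes between apoTf-treated β-thalassemic and WT Pro-E was 4 with either other pseudocount, with a filter of 5 FPKM and without the variance trend, 3 with median-ratio scaling, 2 with no filter (Folr1 and Stard10), 8 with quantile normalization, 1 with only the 6 libraries compared (Stard10), and 7 with only those and without WT replicate 1. Quantile normalization called Coa4, Gpc4, Mir30c-2, Pold3 and Trim12c and not Neu3. With each library left out in turn it was 1 to 6. It was 1, Stard10, without any β-thalassemic or apoTf-treated β-thalassemic library and without WT replicate 2 or 3, and 6 without WT replicate 1 and without apoTf-treated WT replicate 3, which added Hist1h2ba and Tubb1. The cause was not tested. Replicate numbers did not pair the libraries (correlations of the deviations -0.05, 0.23 and -0.32), and with the replicate block 3 genes passed, Hbb-b1, Hbb-bs and Stard10. Tnfrsf21 between apoTf-treated and PBS-injected β-thalassemic mice had an adjusted p of 0.0393 by limma and 0.168 with the block. No value named in the report and called in this comparison turned its direction under these alternatives. The difference between all genes of the 2 groups, a median log2 fold change of 0.10, was 0.00 after either scaling. With 3 pools of mice per group and WT replicate 1 among them, smaller differences may have been missed.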

Other observations

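Some genes varied widely between libraries of the same genotype, and they were chosen after their values were seen. Tubb1, a β-tubulin of megakaryocytes and platelets, was at 0.116, 0.117 and 0.236 FPKM in apoTf-treated β-thalassemic, 0.086, 0.123 and 0.141 FPKM in PBS-injected β-thalassemic, 0.16, 0.115 and 3.97 FPKM in apoTf-treated WT, and 1.41, 3.56 and 3.26 FPKM in WT Pro-E. Hist1h2ba, a histone H2B gene, was at 0.756, 0.643 and 0.897 FPKM in apoTf-treated β-thalassemic, 0.753, 0.52 and 0.503 FPKM in PBS-injected β-thalassemic, 0.514, 0.446 and 7.80 FPKM in apoTf-treated WT, and 3.38, 6.88 and 7.03 FPKM in WT Pro-E. For both, apoTf-treated WT replicate 3 was near the WT libraries and the other apoTf-treated WT libraries were near the th1/th1 libraries.

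Arhgap6, a GTPase-activating protein gene on chromosome X, was at 7.33, 1.66 and 1.59 FPKM in apoTf-treated β-thalassemic, 1.45, 1.43 and 1.49 FPKM in PBS-injected β-thalassemic, 6.80, 1.498 and 13.2 FPKM in apoTf-treated WT, and 8.10, 16.1 and 15.4 FPKM in WT Pro-E. Mid1, a ubiquitin ligase gene on the same chromosome, was at 0.775, 0.155 and 0.095 FPKM, 0.165, 0.199 and 0.172 FPKM, 0.891, 0.183 and 1.51 FPKM, and 1.55, 1.81 and 2.20 FPKM in the same order of groups. In both genes apoTf-treated β-thalassemic replicate 1 was above the other th1/th1 libraries, and apoTf-treated WT replicate 2 was below the other WT libraries. None of the 4 genes passed with all libraries (limma adjusted p = 0.509 each).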
